A study of Mus musculus with 12 samples.

Results

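The integrated stress response genes described here are 33 genes of the ATF4 and CHOP pathway: 12 transcription factors and regulators, 4 secreted or surface proteins, 10 genes of serine, one-carbon and amino acid metabolism, and 7 amino acid transporters. They were chosen by symbol and matched by gene identifier, all 33 were found among the 50600 genes of the files, and 32 were among the 15219 genes that passed the filter on low counts. The exception was Stc2, which had 88 counts in all 12 libraries together. The libraries came from polyadenylated RNA of mouse liver and formed 3 groups of 4. The first group received an adeno-associated virus (AAV) with a guide RNA (gRNA) against Pdx1, a transcription factor gene of the pancreas. The second received AAV with a control gRNA, and the last phosphate-buffered saline (PBS). Every animal, those given PBS included, was of the Rosa26-LSL-dCas9-p300 strain, in which Rosa26 holds a transgene for catalytically dead Cas9 joined to the histone acetyltransferase p300. A stop cassette (LSL) precedes the transgene and is removed by Cre recombinase. Each virus was given at 1e+12 viral genomes per mouse and PBS mice received 0. Injection was into the tail vein of mice aged about 8 weeks, and the liver was collected 2 weeks after it. The labels name the vector AAV.Cbh.gRNA. The sources used here do not give the source of Cre, so the cells that made the fusion are not known.

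The integrated stress response begins when one of several kinases, which sense uncharged tRNA, unfolded proteins in the endoplasmic reticulum, double-stranded RNA or haem shortage, phosphorylates the alpha subunit of the initiation factor eIF2. General translation then falls, while the mRNA of the transcription factor ATF4 is translated more, so that ATF4 activity is set largely after transcription. ATF4, together with C/EBP partners and its target CHOP (encoded by Ddit3), activates genes for amino acid synthesis and uptake, feedback regulators and secreted hormones, several of which the liver releases into blood.

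Several of these genes are known targets of ATF4 through a composite C/EBP and ATF element, so their promoters were searched for its core, TGATGNAA, on both strands. The 250 bases before the transcription start were read from RefSeq promoters on GRCm38.p6, which held 28 of the 33 genes. Eif4ebp1, Slc7a5, Aldh1l2, Cth and Slc7a3 had no entry in that table. The motif was present in 7 of the 28 genes (25%), namely Atf3, Chac1, Asns, Fgf21, Nupr1, Pck2 and Vldlr. It was in 7 of the 35 promoters that the 28 genes have in the table (20%), against 3.45% of all 32851 promoters and 3.91% of all 27025 genes. The 4 promoters that follow are shown because the same motif is in the promoters of genes that changed in opposite directions. Among the 33 genes Nupr1 had the largest fold rise in the virus livers, Atf3 and Asns also rose, and Chac1 had the largest fold fall. Each is written 5′ to 3′ on the strand of the gene, ends at the base before the RefSeq start, and has the motif in capitals. They lie at chr7:126625471-126625720 on the minus strand, chr1:191183334-191183583 on the minus strand, chr6:7693210-7693459 on the minus strand and chr2:119350992-119351241 on the plus strand.
Nupr1: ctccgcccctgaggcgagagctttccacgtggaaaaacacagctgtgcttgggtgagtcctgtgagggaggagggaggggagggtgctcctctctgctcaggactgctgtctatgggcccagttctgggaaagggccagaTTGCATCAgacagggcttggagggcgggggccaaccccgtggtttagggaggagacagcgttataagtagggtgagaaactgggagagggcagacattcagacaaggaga
Atf3: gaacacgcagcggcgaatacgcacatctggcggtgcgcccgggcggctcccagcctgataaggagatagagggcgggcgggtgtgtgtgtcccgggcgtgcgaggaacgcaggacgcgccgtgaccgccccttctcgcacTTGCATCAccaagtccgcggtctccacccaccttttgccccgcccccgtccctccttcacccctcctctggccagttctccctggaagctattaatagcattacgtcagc
Asns: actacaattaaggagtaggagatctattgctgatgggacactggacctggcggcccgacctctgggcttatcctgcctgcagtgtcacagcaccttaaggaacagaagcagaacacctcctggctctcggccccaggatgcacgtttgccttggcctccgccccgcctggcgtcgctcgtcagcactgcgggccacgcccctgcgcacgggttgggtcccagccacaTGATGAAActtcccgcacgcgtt
Chac1: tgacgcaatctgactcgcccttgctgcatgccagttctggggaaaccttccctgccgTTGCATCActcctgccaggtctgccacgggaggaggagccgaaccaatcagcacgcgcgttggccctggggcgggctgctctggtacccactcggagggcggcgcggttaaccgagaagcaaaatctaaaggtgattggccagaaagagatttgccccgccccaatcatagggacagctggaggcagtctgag
The match in Nupr1 and in Atf3 spanned bases 110 to 103 before the start, that in Chac1 bases 193 to 186, and all 3 read TTGCATCA, the reverse complement. In Asns it spanned bases 23 to 16 and read TGATGAAA. The starts used here for all 4 genes lie inside the gene spans of the annotation used for counting. The matches in Nupr1, Atf3 and Asns lie inside those spans too, as does that in Vldlr. That in Chac1 lies before the span of its gene. The cAMP response element TGACGTCA, which is its own reverse complement, was present only in Ppp1r15a among these genes (1 of 28, 3.57%), at bases 12 to 5, against 1.77% of all genes in the table. A match is a description of the sequence and does not show that a factor was bound there.

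Libraries held from 11824767 to 22008046 assigned counts. Pdx1 had 26 to 256 counts in the Pdx1 gRNA libraries, 0 to 2 in the control gRNA libraries and 0 in each PBS library. PBS libraries 2 and 3 stood apart from the other 10, with 1024 and 828 counts of the Y-linked Ddx3y and 33 and 43 of Xist. The other 10 had at most 3 counts of Ddx3y and at least 10696 of Xist. Both PBS libraries thus carried the male pattern and all 8 virus libraries the female one. Summed over 10 hepatocyte markers, expression ranged from 52587 to 107067 CPM in Pdx1 gRNA livers and from 53392 to 72713 CPM in control gRNA livers, against 94167 to 128721 CPM in PBS livers. CPM are counts per 1e+06 counts, on library sizes scaled by TMM, and no marker was at 0 in any group. Of these 10 markers 2 were called lower in Pdx1 gRNA livers and 8 in control gRNA livers against PBS. In bulk tissue fewer hepatocytes and less of these RNAs per hepatocyte cannot be told apart. Summed cholangiocyte markers were 46.1 to 103 CPM, 58.9 to 406 CPM and 24.4 to 69.9 CPM in Pdx1 gRNA, control gRNA and PBS livers. Summed macrophage and Kupffer cell markers were 196 to 581 CPM, 237 to 819 CPM and 157 to 671 CPM. Of 5 tested cholangiocyte markers 0 were called in Pdx1 gRNA livers and 3 were called higher in control gRNA livers, and of 8 macrophage markers 0 and 2. Summed sinusoidal endothelial markers were 127 to 228 CPM, 151 to 269.8 CPM and 209.9 to 572.5 CPM in Pdx1 gRNA, control gRNA and PBS livers. Of these 8 markers 4 were called lower in Pdx1 gRNA livers and 2 in control gRNA livers, with median log2 fold changes of -1.04 and -0.68. Summed stellate cell and fibroblast markers were 144 to 296 CPM, 237 to 835 CPM and 231.5 to 372 CPM, and 0 of these 8 were called. The part of these shifts in the results below was not tested.

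In livers given either virus, most of the stress response genes were higher than after PBS and 2 were lower. A gene is called here at an adjusted p under 0.05 in edgeR's quasi-likelihood test (Benjamini-Hochberg over all genes tested), and "rose" and "fell" are kept for called genes. In Pdx1 gRNA livers 17 of the 32 tested members rose and 2 fell against PBS, where 11.7% of all tested genes rose and 10.4% fell. In control gRNA livers 18 rose and 2 fell, where 16.3% of all genes rose and 15.8% fell. The median log2 fold change of the members was 0.96 in Pdx1 gRNA livers and 1.08 in control gRNA livers, and that of all tested genes was -0.06 and -0.01. All 4 Pdx1 gRNA libraries lay above all 4 PBS libraries for 18 members and below them for 2 (12.7% and 8.74% of all genes), and all 4 control gRNA libraries likewise for 18 and 2 (16.5% and 12.3% of all genes). The 2 comparisons share their PBS libraries, so their values stand side by side and neither is support for the other. The genes that fell in both were Chac1 and Slc38a2. Of the 7 genes with TGATGNAA in the promoter, 3 rose and 1 fell in Pdx1 gRNA livers, and 4 rose and 1 fell in control gRNA livers. Of the 20 tested genes whose promoter lacked it, 11 rose and 1 fell in each, and whether these shares differ was not tested. Whether every library stands for a separate mouse is not stated in the labels, so the p-values refer to differences among libraries.

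**Figure D1:**
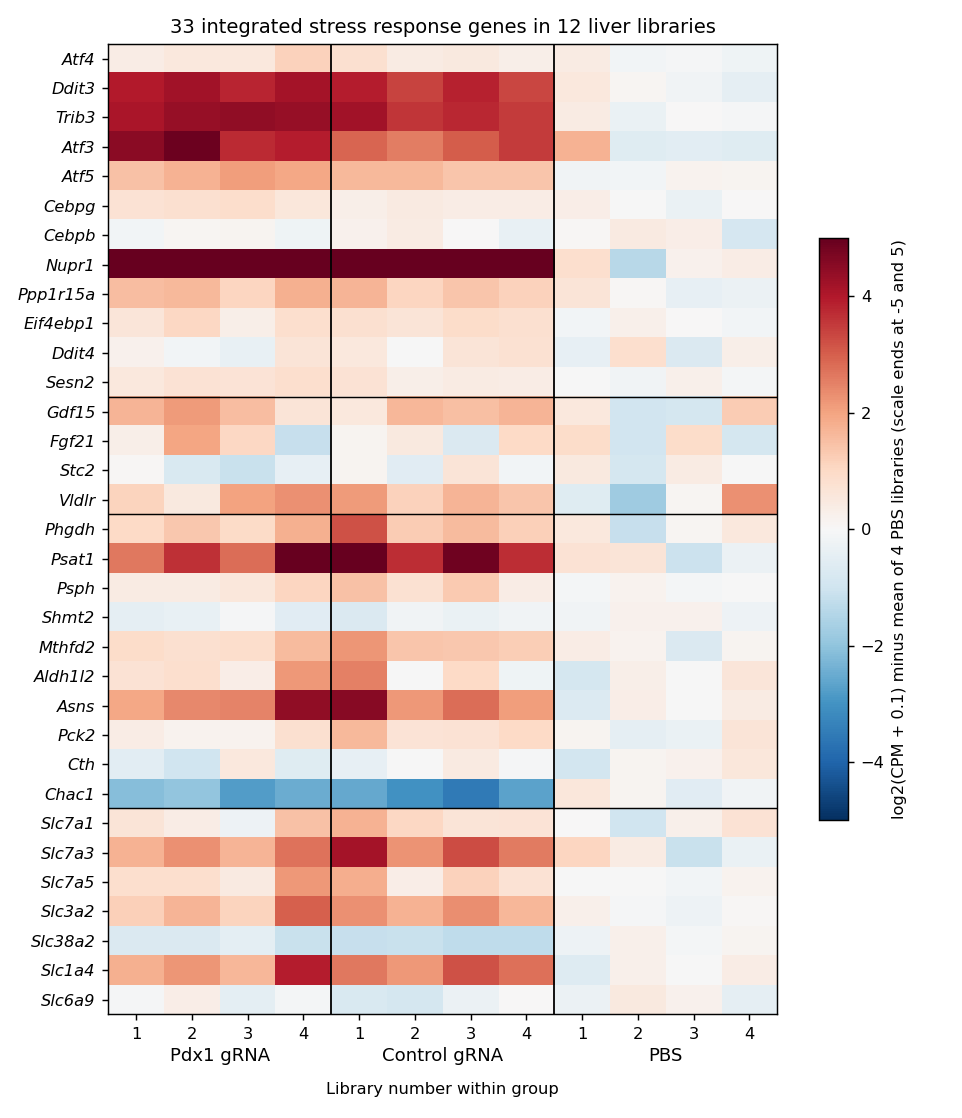
Level of each of the 33 genes (rows, ordered by role) in each of the 12 libraries (columns, numbered within their group), as log2(CPM + 0.1) minus its mean over the 4 PBS libraries; red is higher and blue lower, and the scale ends at 5 on either side. Nupr1, Ddit3, Trib3 and Atf3 are the reddest regulators in all 8 virus libraries, Psat1 and Asns are darkest in Pdx1 gRNA library 4 and control gRNA library 1, and Chac1 and Slc38a2 are blue in all 8.

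Most of the transcription factors and feedback regulators rose: 10 of 12 rose in Pdx1 gRNA livers and 8 of 12 in control gRNA livers. In edgeR, DESeq2 and limma-voom 0 of them fell, and 0 were lower at an unadjusted p under 0.05 in edgeR. Positions are given on GRCm38/mm10. Nupr1 (ENSMUSG00000030717.9, chromosome 7, 126623249 to 126630861, minus strand), which encodes a small stress-induced chromatin protein, had 472, 565, 239 and 461.5 CPM in the Pdx1 gRNA livers and 681, 201, 363 and 275 CPM in the control gRNA livers, against 6.11, 1.23, 3.89 and 4.36 CPM in the PBS livers. The lowest virus library was thus far above the highest PBS library, and levels within the control gRNA group spread over a 3.39-fold range. Its log2 fold change was 6.78 ± 0.56 (SE) in Pdx1 gRNA livers (edgeR adjusted p = 3.18e-05) and 6.59 ± 0.55 in control gRNA livers (edgeR adjusted p = 3.85e-05), which are 110-fold and 96-fold.

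Ddit3 (ENSMUSG00000025408.15, chromosome 10, 127290774 to 127296288, plus strand), the gene of CHOP, had 219, 259, 196 and 254 CPM in the Pdx1 gRNA livers and 216, 148, 203 and 144 CPM in the control gRNA livers, against 20.1, 15.1, 12.5 and 10.1 CPM in the PBS livers. The groups given virus did not overlap with PBS. It rose by 4.0 ± 0.24 on the log2 scale with the Pdx1 gRNA (edgeR adjusted p = 1.9e-06) and by 3.62 ± 0.24 with the control gRNA (edgeR adjusted p = 4.52e-06). Trib3 (ENSMUSG00000032715.9, chromosome 2, 152337422 to 152344032, minus strand), a pseudokinase gene that CHOP and ATF4 induce and that feeds back on both, had 194, 231, 244 and 229 CPM in the Pdx1 gRNA livers and 209, 135, 154 and 128 CPM in the control gRNA livers, against 14.8, 8.92, 11.3 and 10.7 CPM in the PBS livers. Again every virus library was above every PBS library, and the log2 fold changes were 4.29 ± 0.22 (edgeR adjusted p = 3.54e-07) in Pdx1 gRNA livers and 3.77 ± 0.21 (edgeR adjusted p = 1.33e-06) in control gRNA livers.

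Atf3 (ENSMUSG00000026628.13, chromosome 1, 191170296 to 191218039, minus strand), an early stress-induced factor of the same bZIP family as ATF4, had 90.6, 119, 52.7 and 61.0 CPM in the Pdx1 gRNA livers and 30.1, 23.7, 32.6 and 44.7 CPM in the control gRNA livers, against 13.4, 2.56, 2.66 and 2.50 CPM in the PBS livers. PBS library 1 stood above the other 3 PBS libraries, and all 3 groups were separate from one another. The log2 fold change was 3.89 ± 0.54 with the Pdx1 gRNA (edgeR adjusted p = 0.000868) and 2.59 ± 0.52 with the control gRNA (edgeR adjusted p = 0.00342). Without PBS library 1 these values were 4.97 and 3.66.

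Atf4 itself (ENSMUSG00000042406.7, chromosome 15, 80255184 to 80257540, plus strand) had smaller fold changes than Nupr1, Ddit3, Trib3 and Atf3. Its levels were 138, 154, 156 and 238 CPM in the Pdx1 gRNA livers and 189, 143, 149 and 132 CPM in the control gRNA livers, against 142, 97.5, 104 and 93.6 CPM in the PBS livers. PBS library 1 lay within the range of both virus groups, so the groups overlapped. Atf4 rose in Pdx1 gRNA livers, with a log2 fold change of 0.65 ± 0.20 (edgeR adjusted p = 0.037), and was not called in control gRNA livers, where it was 0.49 ± 0.20 (edgeR adjusted p = 0.0794). The call in Pdx1 gRNA livers was lost without PBS library 2, 3 or 4, control gRNA library 3, or Pdx1 gRNA library 2 or 4 (log2 fold changes from 0.43 to 0.70, edgeR adjusted p from 0.0583 to 0.124). It was also lost when only the 8 libraries compared were fitted (0.68, edgeR adjusted p = 0.0687), and 11 of 20 alternative settings kept it. In control gRNA livers Atf4 was called without PBS library 1 (0.64, edgeR adjusted p = 0.0176) or Pdx1 gRNA library 4 (0.47, edgeR adjusted p = 0.0456). These are levels of the mRNA, and the ATF4 protein was not measured.

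Among the other regulators, Atf5, a factor related to ATF4 that is abundant in liver, averaged 1055 ± 186 CPM in Pdx1 gRNA livers and 852 ± 79.5 CPM in control gRNA livers, against 299.6 ± 36.7 CPM in PBS livers (SD, n = 4 each). It rose by 1.82 ± 0.19 and 1.51 ± 0.18 on the log2 scale in Pdx1 gRNA and control gRNA livers. Ppp1r15a, whose product (GADD34) directs a phosphatase to eIF2 and so reverses the response, averaged 35.8 ± 6.75 CPM and 31.6 ± 6.66 CPM with the Pdx1 and control gRNA, against 12.9 ± 4.70 CPM with PBS. It rose in both (log2 fold changes of 1.47 ± 0.24 and 1.29 ± 0.24). Eif4ebp1, an inhibitor of cap-dependent translation, rose by 0.72 ± 0.16 and 0.79 ± 0.16 in Pdx1 gRNA and control gRNA livers. Sesn2, a sestrin that restrains mTORC1 signalling when leucine is short, rose by 0.70 ± 0.14 and 0.45 ± 0.14. The Sesn2 call in control gRNA livers was lost without PBS library 2 or 4, control gRNA library 1 or 3, or Pdx1 gRNA library 2 (log2 fold changes from 0.33 to 0.45, edgeR adjusted p from 0.0562 to 0.128). It was also lost with no filter on low counts (0.50, edgeR adjusted p = 0.0585) and when only the 8 libraries compared were fitted (0.43, edgeR adjusted p = 0.0683). Cebpg, a dimer partner of ATF4, averaged 133 ± 13.4 CPM and 103 ± 4.58 CPM, against 80.5 ± 15.4 CPM with PBS. It rose in Pdx1 gRNA livers (0.73 ± 0.15, edgeR adjusted p = 0.00532) and was not called in control gRNA livers (0.35 ± 0.15, edgeR adjusted p = 0.0806), where it was called without PBS library 1 (0.47, edgeR adjusted p = 0.00941) and with upper-quartile factors (0.45, edgeR adjusted p = 0.0465). Cebpb, a C/EBP factor of hepatocytes, averaged 88.9 ± 11.02 CPM and 96.8 ± 21.4 CPM, against 95.4 ± 32.3 CPM with PBS. Ddit4, an inhibitor of mTORC1, averaged 18.0 ± 5.83 CPM and 23.0 ± 4.99 CPM, against 17.9 ± 8.79 CPM. Neither was called.

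**Figure D2:**
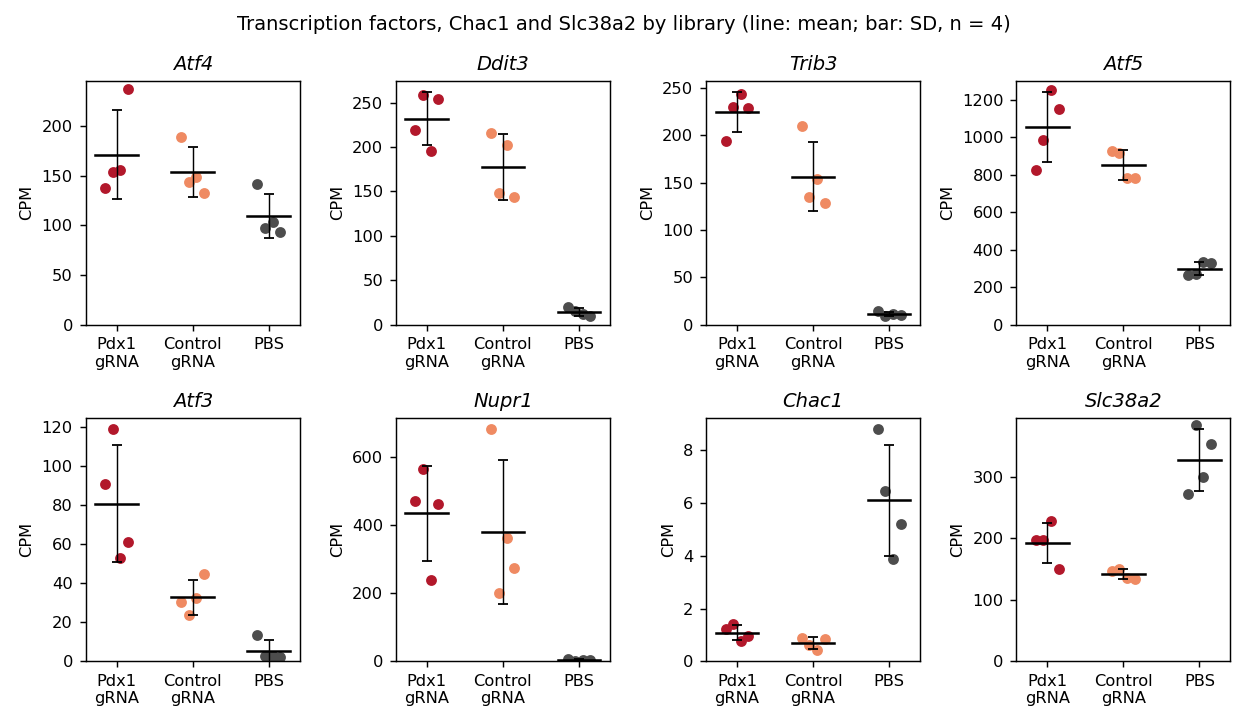
CPM of 6 transcription factors and regulators and of the 2 genes that fell, in each library of the 3 groups (points), with the mean (line) and SD (bar) of 4 libraries; each panel has its own axis, which starts at 0. Ddit3, Trib3, Atf5, Atf3 and Nupr1 separate both virus groups from PBS, whereas Atf4 overlaps, with PBS library 1 at 142 CPM.

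None of the secreted and surface genes was called by edgeR, in which 1 of them, Gdf15, had an unadjusted p under 0.05 in each comparison. DESeq2 called Gdf15 in both and limma-voom called none. Gdf15, a circulating stress hormone of the TGF-beta family, averaged 37.1 ± 14.1 CPM in Pdx1 gRNA livers and 32.5 ± 10.2 CPM in control gRNA livers, against 14.98 ± 10.9 CPM in PBS livers, where library 4 reached 29.3 CPM. Its log2 fold changes were 1.30 ± 0.47 (edgeR adjusted p = 0.0658) and 1.1 ± 0.47 (edgeR adjusted p = 0.0876). Without PBS library 4 they were 1.84 (edgeR adjusted p = 0.0163) and 1.65 (edgeR adjusted p = 0.0174). Fgf21, a hormone that the liver secretes on fasting and amino acid shortage, averaged 2.74 ± 2.23 CPM and 1.78 ± 0.853 CPM, against 1.68 ± 1.15 CPM with PBS. Its highest library was 10.3 times its lowest within the Pdx1 gRNA group. Vldlr, a lipoprotein receptor, averaged 21.2 ± 10.9 CPM and 21.1 ± 6.15 CPM, against 11.7 ± 14.6 CPM, and PBS library 4, at 33.4 CPM, was above every virus library. Stc2, a secreted glycoprotein gene, had 20, 43 and 25 counts over the Pdx1 gRNA, control gRNA and PBS groups and was not tested.

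Of the 10 genes of serine, one-carbon and amino acid metabolism, 3 rose and 1 fell in Pdx1 gRNA livers, and 6 rose and 1 fell in control gRNA livers. The 3 enzymes that make serine from a glycolytic intermediate were all higher in all 8 virus libraries than in any PBS library. Psat1 (ENSMUSG00000024640.9, chromosome 19, 15904678 to 15947337, minus strand), the transaminase of this pathway, had the largest fold changes of the 3. It had 6.62, 13.5, 7.39 and 50.6 CPM in the Pdx1 gRNA livers and 71.3, 13.9, 31.7 and 14.0 CPM in the control gRNA livers, against 1.68, 1.61, 0.409 and 0.786 CPM in the PBS livers. Pdx1 gRNA library 4 and control gRNA library 1 were the highest of their groups by a wide margin. The log2 fold changes were 4.08 ± 0.85 (edgeR adjusted p = 0.00708) and 4.83 ± 0.87 (edgeR adjusted p = 0.00225) in Pdx1 gRNA and control gRNA livers. They were 2.97 without Pdx1 gRNA library 4 and 4.09 without control gRNA library 1. Phgdh, the entry enzyme, averaged 2.02 ± 0.588 CPM and 3.52 ± 2.83 CPM in Pdx1 gRNA and control gRNA livers, against 0.846 ± 0.404 CPM in PBS livers. Psph, the phosphatase of the last step, averaged 8.92 ± 2.18 CPM and 11.9 ± 3.96 CPM, against 5.69 ± 0.533 CPM. Both rose in control gRNA livers, Phgdh by 2.03 ± 0.53 (edgeR adjusted p = 0.0123) and Psph by 1.06 ± 0.25 (edgeR adjusted p = 0.00746). Both missed the threshold in Pdx1 gRNA livers, at 1.22 ± 0.53 (edgeR adjusted p = 0.119) and 0.65 ± 0.25 (edgeR adjusted p = 0.0806). Without control gRNA library 1, Phgdh was 1.27 in control gRNA livers and was called in Pdx1 gRNA livers (1.23, edgeR adjusted p = 0.047). Psat1 and Phgdh had 60 and 46 counts over the PBS group. They passed the filter on low counts through the virus libraries, where they were higher.

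Asns (ENSMUSG00000029752.12, chromosome 6, 7675169 to 7693254, minus strand), asparagine synthetase, a classical target of ATF4, had 3.10, 4.34, 4.60 and 18.1 CPM in the Pdx1 gRNA livers and 19.5, 3.65, 5.62 and 3.43 CPM in the control gRNA livers, against 0.419, 0.949, 0.716 and 1.00 CPM in the PBS livers. The same libraries as for Psat1 were highest, and no virus library was as low as a PBS library. With 38 counts over the PBS group, Asns passed the filter on low counts through the virus libraries, where it was higher. The log2 fold changes were 3.30 ± 0.75 (edgeR adjusted p = 0.00929) and 3.40 ± 0.75 (edgeR adjusted p = 0.0054) in Pdx1 gRNA and control gRNA livers. They were 2.37 without Pdx1 gRNA library 4 and 2.44 without control gRNA library 1. Mthfd2, a mitochondrial folate enzyme, averaged 3.81 ± 1.09 CPM and 5.46 ± 2.01 CPM, against 1.81 ± 0.542 CPM in PBS livers. It rose in both (log2 fold changes of 1.07 ± 0.33 and 1.58 ± 0.33). Its call in Pdx1 gRNA livers was lost without PBS library 2, 3 or 4 or Pdx1 gRNA library 1, 2 or 4 (log2 fold changes from 0.83 to 1.16, edgeR adjusted p from 0.0503 to 0.116), and when only the 8 libraries compared were fitted (1.09, edgeR adjusted p = 0.0569). Pck2, the mitochondrial phosphoenolpyruvate carboxykinase, averaged 8.16 ± 1.79 CPM in Pdx1 gRNA livers and 12.96 ± 4.15 CPM in control gRNA livers, against 6.48 ± 2.39 CPM in PBS livers. It rose in control gRNA livers (0.99 ± 0.28, edgeR adjusted p = 0.0184) and was not called in Pdx1 gRNA livers (edgeR adjusted p = 0.43). The call was lost without PBS library 2 or 3 or control gRNA library 1 (log2 fold changes from 0.73 to 0.88, edgeR adjusted p from 0.0543 to 0.0744).

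The other 3 metabolic genes that did not pass were Shmt2, the mitochondrial serine hydroxymethyltransferase, Aldh1l2, a mitochondrial folate dehydrogenase, and Cth, the last enzyme of transsulfuration. Shmt2 averaged 224 ± 35.1 CPM in Pdx1 gRNA livers and 225 ± 37.1 CPM in control gRNA livers, against 289 ± 49.4 CPM in PBS livers. Cth averaged 300.2 ± 152 CPM and 372 ± 91.2 CPM, against 389 ± 144 CPM. Aldh1l2 averaged 1.33 ± 0.916 CPM and 1.396 ± 1.42 CPM, against 0.568 ± 0.261 CPM.

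Chac1 (ENSMUSG00000027313.3, chromosome 2, 119351229 to 119354381, plus strand), which encodes an enzyme that degrades glutathione and is itself a known target of ATF4, ATF3 and CHOP, went the other way. It had 1.24, 1.398, 0.754 and 0.964 CPM in the Pdx1 gRNA livers and 0.894, 0.625, 0.413 and 0.830 CPM in the control gRNA livers, against 8.80, 6.45, 3.89 and 5.22 CPM in the PBS livers. All 8 virus libraries were below all 4 PBS libraries, from 72 and 61 counts over the Pdx1 gRNA and control gRNA groups and 326 over the PBS group. The log2 fold change was -2.48 ± 0.34 in Pdx1 gRNA livers (edgeR adjusted p = 0.000764) and -3.13 ± 0.35 in control gRNA livers (edgeR adjusted p = 0.000163), so that the gene was 5.57-fold and 8.77-fold lower. It remained called in all 20 alternative settings in both comparisons, with log2 fold changes from -2.69 to -2.24 and from -3.35 to -2.90.

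Of the 7 amino acid transporters 4 rose and 1 fell in each comparison. The gene that fell was Slc38a2 (ENSMUSG00000022462.6, chromosome 15, 96687394 to 96699698, minus strand), a sodium-coupled carrier of small neutral amino acids that amino acid shortage is known to induce. It had 198, 197, 228 and 149.6 CPM in the Pdx1 gRNA livers and 147, 150.4, 136 and 134 CPM in the control gRNA livers, against 273, 384, 299 and 354 CPM in the PBS livers. No virus library reached the lowest PBS library, and the log2 fold changes were -0.76 ± 0.16 (edgeR adjusted p = 0.0073) and -1.21 ± 0.17 (edgeR adjusted p = 0.000505) in Pdx1 gRNA and control gRNA livers. It too was called in all 20 alternative settings.

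Slc7a3 (ENSMUSG00000031297.14, chromosome X, 101079210 to 101086020, minus strand), a carrier of cationic amino acids, was, per kilobase of exon, the least abundant of the transporters that rose. It had 0.621, 0.957, 0.603 and 1.32 CPM in the Pdx1 gRNA livers and 3.80, 0.938, 2.02 and 1.22 CPM in the control gRNA livers, against 0.359, 0.190, 0 and 0.0714 CPM in the PBS livers. These rest on 59, 191 and 9 counts over the Pdx1 gRNA, control gRNA and PBS groups. All virus libraries were above all PBS libraries. With 9 counts in PBS livers, it passed the filter on low counts through the virus libraries, where it was higher. It did not pass when only the Pdx1 gRNA and PBS libraries were fitted. The log2 fold changes in the fit of all libraries were 2.33 ± 0.70 (edgeR adjusted p = 0.0311) and 3.51 ± 0.67 (edgeR adjusted p = 0.00251). Without PBS library 1 they were 3.23 and 4.41. The call in Pdx1 gRNA livers was lost without PBS library 2, 3 or 4 or Pdx1 gRNA library 2 or 4 (log2 fold changes from 2.01 to 2.38, edgeR adjusted p from 0.0633 to 0.0886).

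Slc3a2, the heavy chain that carries several amino acid exchangers to the cell surface, averaged 219 ± 152 CPM in Pdx1 gRNA livers and 232 ± 53.2 CPM in control gRNA livers, against 57.0 ± 8.69 CPM in PBS livers. Its log2 fold changes were 1.94 ± 0.37 and 2.02 ± 0.37. Its partner Slc7a5, the exchanger of large neutral amino acids, averaged 9.90 ± 6.02 CPM and 9.20 ± 4.28 CPM, against 4.18 ± 0.389 CPM. It rose by 1.25 ± 0.39 (edgeR adjusted p = 0.0383) and 1.14 ± 0.39 (edgeR adjusted p = 0.0407) on the log2 scale. Slc1a4, a carrier of alanine, serine and cysteine, averaged 44.4 ± 39.0 CPM and 44.6 ± 13.1 CPM, against 6.85 ± 1.94 CPM (2.70 ± 0.49 and 2.71 ± 0.49). In Pdx1 gRNA livers the values rested in part on 1 library: without Pdx1 gRNA library 4 the log2 fold changes there were 1.32 for Slc3a2, 1.85 for Slc1a4 and 0.71 for Slc7a5 (edgeR adjusted p = 0.151). Both Slc7a5 calls were lost on leaving out single libraries. That in Pdx1 gRNA livers was lost without PBS library 1, 2, 3 or 4, control gRNA library 3 or Pdx1 gRNA library 2 or 4 (log2 fold changes from 0.71 to 1.37, edgeR adjusted p from 0.0521 to 0.151). That in control gRNA livers was lost without PBS library 1, 2, 3 or 4, control gRNA library 1 or 3 or Pdx1 gRNA library 2 (log2 fold changes from 0.77 to 1.20, edgeR adjusted p from 0.0557 to 0.163). Slc7a1, the general carrier of cationic amino acids, averaged 2.69 ± 1.41 CPM and 3.60 ± 1.42 CPM, against 1.79 ± 0.835 CPM. Slc6a9, a glycine transporter, averaged 29.1 ± 6.80 CPM and 22.2 ± 6.40 CPM, against 30.9 ± 9.32 CPM. Neither was called.

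**Figure D3:**
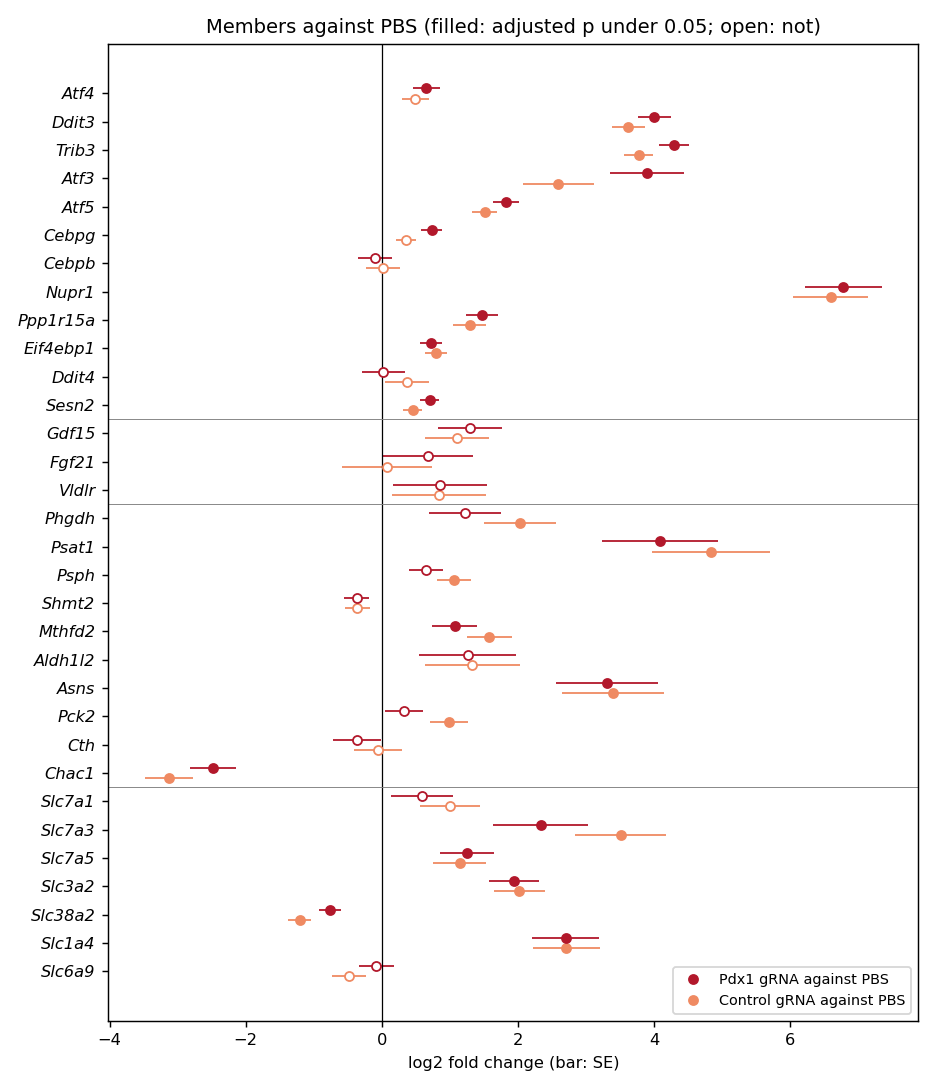
Log2 fold change (points, with bars of 1 SE) against PBS for the 32 tested genes, ordered by role, in Pdx1 gRNA livers (dark red, upper) and control gRNA livers (orange, lower); filled points have an edgeR adjusted p under 0.05. Nupr1 is farthest right at 6.78 and 6.59, and Chac1 farthest left at -2.48 and -3.13.

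The comparisons against PBS rest in part on the 2 PBS libraries with the male pattern. Without them 9 members rose and 2 fell in Pdx1 gRNA livers (4.5% and 3.4% of all genes tested in that setting) and 12 rose and 2 fell in control gRNA livers (6.91% and 7.05%). Nupr1, Ddit3, Trib3, Atf3, Atf5, Ppp1r15a, Eif4ebp1, Slc1a4, Chac1 and Slc38a2 kept their calls in both comparisons. In Pdx1 gRNA livers the calls of Atf4, Cebpg, Psat1, Mthfd2, Asns, Slc7a3, Slc7a5 and Slc3a2 were lost, with log2 fold changes of 0.54, 0.55, 3.97, 0.85, 3.43, 1.95, 1.16 and 1.79. In control gRNA livers those of Sesn2, Phgdh, Psph, Asns, Pck2 and Slc7a5 were lost, with log2 fold changes of 0.48, 1.61, 1.09, 3.5, 0.63 and 1.04. Limma-voom called 14 members higher and 2 lower in Pdx1 gRNA livers (11.1% and 8.77% of all genes), without Psat1, Mthfd2 and Slc7a5, and 17 higher and 2 lower in control gRNA livers (16.5% and 14.3%), without Slc7a5. DESeq2 called 18 and 19 higher, with Gdf15 added (13.4% and 17.5% of all genes), and 2 lower in each (14.2% and 19.7%). Counting ignored strand, and 9 members share exon bases with a neighbouring gene, so reads of those stretches cannot be assigned to either gene with certainty. The longest shares were Slc6a9 with Ccdc24 (27.8% of its exon length), Cebpb with Tmem189 (20.7%), Aldh1l2 with D10Wsu102e (14.1%) and Psph with Cct6a (10.4%).

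Between the Pdx1 gRNA and the control gRNA livers, none of the 32 members was called, and neither was any of the 15219 genes (0%) in edgeR or in limma-voom. This comparison is also the test of whether the responses to the 2 viruses differed. Atf4 and Cebpg, called with the Pdx1 gRNA alone, and Phgdh, Psph and Pck2, called with the control gRNA alone, are thus not shown to differ between them. The members split evenly, 16 above 0 and 16 below, with a median log2 fold change of 0.00 (all genes -0.01). At an unadjusted p under 0.05, 4 members were higher and 2 lower (2.23% and 3.8% of all genes). The higher ones were Atf3 (1.30 ± 0.48, unadjusted p = 0.0185), Trib3 (0.52 ± 0.19, unadjusted p = 0.0162), Slc38a2 (0.45 ± 0.16, unadjusted p = 0.0173) and Cebpg (0.37 ± 0.15, unadjusted p = 0.0244). The lower ones were Slc7a3 (-1.19 ± 0.54, unadjusted p = 0.0462) and Pck2 (-0.66 ± 0.28, unadjusted p = 0.0328). Each of the 6 had an edgeR adjusted p of 0.809. For 2 members, Atf3 and Cebpg, all 4 Pdx1 gRNA libraries were above all 4 control gRNA libraries (3.48% of all genes), and for 0 members were they all below (3.17%). DESeq2's Wald test called 6 genes higher and 8 lower over the whole table (0.0394% and 0.0526%), none of them a member. By role, 9 of 12 regulators had a positive difference and 9 of 10 metabolic genes a negative one, with medians of 0.22 and -0.36. Of all 15219 genes, 7471 were above 0 and 7748 below. Control gRNA library 1 was the highest of its group for 8 of the 10 metabolic genes. Genes of a role share the same libraries, and whether the roles differ was not tested. A p above the threshold does not show that the groups were alike.

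Within the virus groups most members peaked in the same library, Pdx1 gRNA library 4 or control gRNA library 1. The median SD of log2 levels over 4 libraries was 0.37, 0.41 and 0.49 for the members in Pdx1 gRNA, control gRNA and PBS livers, against 0.28, 0.24 and 0.42 for all tested genes. Pdx1 gRNA library 4 held the highest level of its group for 17 of the 32 members (33.6% of all genes were highest there), and Pdx1 gRNA library 1 for 0 (23.0% of all genes). Control gRNA library 1 was highest for 19 members (29.6% of all genes). Among the 10 metabolic genes these libraries were highest for 7 and 8, among the 7 transporters for 5 and 3, and among the 12 regulators for 4 and 7. Relative to the PBS mean, the median member stood at 0.79, 0.85, 0.90 and 1.53 on the log2 scale in Pdx1 gRNA libraries 1 to 4, and at 1.68, 0.90, 1.23 and 0.99 in control gRNA libraries 1 to 4.

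The spread differed by gene. Asns in the highest library was 5.84 times its level in the lowest within the Pdx1 gRNA group and 5.68 times within the control gRNA group, and Slc1a4 4.84 times and 2.05 times. Cebpg, in contrast, varied 1.27-fold and 1.11-fold, and Sesn2 1.27-fold and 1.35-fold. Pdx1 gRNA library 4 and control gRNA library 1 also had the lowest hepatocyte marker sums of their groups (52587 and 53392 CPM), the highest cholangiocyte sums (103 and 406 CPM) and the highest TMM factors (1.19 and 1.22). Both also had the highest sinusoidal endothelial sums of their groups (228 and 269.8 CPM). Control gRNA library 1 had the highest sum of stellate cell and fibroblast markers of its group (835 CPM), and Pdx1 gRNA library 4 the highest sum of macrophage markers (581 CPM). The reverse did not hold. Pdx1 gRNA library 4 had 280 CPM of stellate markers (highest of its group 296 CPM), and control gRNA library 1 had 290.5 CPM of macrophage markers (highest 818.5 CPM). Pdx1 gRNA library 4 was also the one with 256 counts of Pdx1. The part of any of these in the higher stress gene levels was not tested.

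**Figure D4:**
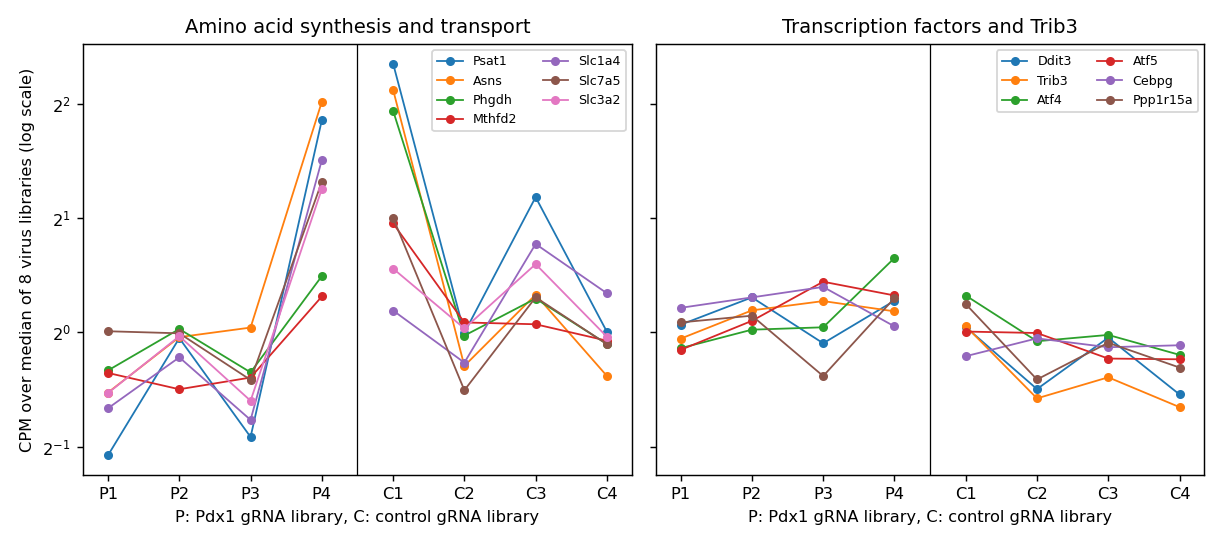
CPM of 7 amino acid genes (left) and 6 regulators (right) in Pdx1 gRNA libraries (P) and control gRNA libraries (C), each divided by the gene's median over these 8 libraries, on a log axis (lines join the values of 1 gene and libraries have no order). All 7 amino acid genes were highest of the Pdx1 gRNA libraries in P4, where Asns had 18.1 CPM. Psat1, Asns, Phgdh, Mthfd2 and Slc7a5 were highest of the control gRNA libraries in C1, where Asns had 19.5 CPM. Slc1a4 and Slc3a2 were highest of these in C3. The 6 regulators shown stay closer to their median. Of the regulators not shown, Nupr1 varied 2.37-fold and 3.39-fold within the Pdx1 gRNA and control gRNA groups, and Sesn2 1.27-fold and 1.35-fold.

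Per kilobase of exon, the order of the genes in PBS liver was led by Atf5 (150.3 CPM per kb), Cth (139 CPM per kb) and Shmt2 (92.8 CPM per kb). In the virus groups Atf5 was again highest, with 529 ± 93.5 CPM per kb after the Pdx1 gRNA and 428 ± 39.9 CPM per kb after the control gRNA. Nupr1 was the next in both, at 173 and 151 CPM per kb, whereas it ranked 22 of 33 in PBS livers at 1.55 CPM per kb. Ddit3 ranked 3 and 4 in Pdx1 gRNA and control gRNA livers and 11 in PBS livers, and Trib3 5 and 6 against 14. Chac1 ranked 29 and 30 in the virus groups, against 17 in PBS livers. Neighbours in these orders often overlapped: in control gRNA livers Nupr1 (151 ± 84.1 CPM per kb), Cth (133 ± 32.7) and Ddit3 (104 ± 21.6) lay within their SDs.

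Smaller shares of the wider pathway's gene lists were called higher. A list of 17 tested genes covers eIF2 and its control: the eIF2 kinases and their regulators, subunits of eIF2 and of its exchange factor eIF2B, and Ppp1r15b, a phosphatase subunit gene. Of these, 4 rose in Pdx1 gRNA livers, and 4 rose and 1 fell in control gRNA livers. Those with the smallest p were Eif2b3 and Eif2b2, subunits of eIF2B, with log2 fold changes of 0.81 ± 0.18 and 0.53 ± 0.11 in Pdx1 gRNA livers and 0.84 ± 0.18 and 0.48 ± 0.11 in control gRNA livers. Gcn1l1, whose product activates the amino acid sensing kinase GCN2, fell in control gRNA livers (-0.66 ± 0.16, edgeR adjusted p = 0.00957) and was not called in Pdx1 gRNA livers (edgeR adjusted p = 0.662). It averaged 103 ± 21.7 CPM with the Pdx1 gRNA, 60.7 ± 1.06 CPM with the control gRNA and 95.8 ± 13.9 CPM with PBS. It was the 1 gene of the lists here that DESeq2 called between the virus groups (0.78, DESeq2 adjusted p = 0.0131), where edgeR gave 0.77 ± 0.16 and an adjusted p of 0.65. Cytosolic tRNA synthetases, which charge tRNA with amino acids and include known ATF4 targets, rose in 5 and fell in 1 of 21 in Pdx1 gRNA livers, and rose in 6 and fell in 2 in control gRNA livers. Sars, Vars and Gars, for serine, valine and glycine, rose by 1.14 ± 0.16, 0.96 ± 0.16 and 1.20 ± 0.24 with the Pdx1 gRNA and by 1.09 ± 0.16, 1.00 ± 0.16 and 1.33 ± 0.24 with the control gRNA.

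Of 19 tested genes that are known ATF4 targets outside the 33, 8 rose and 2 fell in Pdx1 gRNA livers and 9 rose and 3 fell in control gRNA livers, with median log2 fold changes of 0.65 and 0.57. Nars is on this list and also on that of the cytosolic tRNA synthetases. The 3 with the smallest p were Cdkn1a (3.75 ± 0.38 and 3.42 ± 0.38), a cell cycle inhibitor, Tnfrsf10b (3.61 ± 0.51 and 3.43 ± 0.51), a death receptor, and Gadd45a (2.73 ± 0.33 and 2.08 ± 0.33), a DNA damage and stress gene. All 3 are also known targets of p53. Of 15 other folate and glycine genes 2 rose and 3 fell in Pdx1 gRNA livers and 2 rose and 6 fell in control gRNA livers. Atic and Tyms, of purine and thymidylate synthesis, rose by 1.12 ± 0.24 and 0.67 ± 0.17 in Pdx1 gRNA livers and by 1.12 ± 0.24 and 0.77 ± 0.17 in control gRNA livers. Amt, of the glycine cleavage system, fell in both (-0.88 ± 0.17 and -0.77 ± 0.17). None of 15 other amino acid transporters rose in edgeR, while 4 fell in Pdx1 gRNA livers and 5 in control gRNA livers. At an unadjusted p under 0.05, 0 and 1 were higher. That gene, Slc7a6, named after its values were seen, had a log2 fold change of 1.09 ± 0.41 in control gRNA livers (edgeR adjusted p = 0.0568) and was called there by DESeq2 and limma-voom. Slc38a3 and Slc38a4, hepatocyte carriers of the same family as Slc38a2, were among those that fell in both comparisons. Slc38a3 averaged 1231 ± 425 CPM in Pdx1 gRNA livers and 986 ± 176 CPM in control gRNA livers, against 2503 ± 269 CPM in PBS livers. Slc38a4 averaged 625 ± 102 CPM and 602 ± 142 CPM, against 1515 ± 518 CPM. The taurine carrier Slc6a6 fell as well (-0.74 ± 0.18 and -0.79 ± 0.18).

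None of the genes listed for the ATF6 and XBP1 arms of the unfolded protein response was called higher. Most are chaperones or folding enzymes, and the transcription factor gene Xbp1 is among them. Of these 16 genes, 0 rose and 1 fell in Pdx1 gRNA livers and 0 rose and 2 fell in control gRNA livers. Their median log2 fold changes were -0.17 and -0.28. Edem1, which marks misfolded glycoproteins for degradation, fell by 0.69 ± 0.17 and 0.84 ± 0.17 on the log2 scale. Dnajc3, a co-chaperone, fell in control gRNA livers (-0.58 ± 0.15). Hsp90b1, a chaperone of secreted proteins, averaged 630.0 ± 67.8 CPM and 620.3 ± 91.0 CPM, against 869 ± 160 CPM with PBS, and was not called. At an unadjusted p under 0.05 in edgeR, 0 of the 16 were higher in either comparison, and DESeq2 and limma-voom called 0 higher. At that unadjusted p, 3 were lower in Pdx1 gRNA livers and 6 in control gRNA livers (18.1% and 21.8% of all genes). DESeq2 called 3 and 5 lower (14.2% and 19.7% of all genes), and limma-voom 1 and 2 (8.77% and 14.3%). Of 12 genes of the mitochondrial unfolded protein response 2 rose and 2 fell in Pdx1 gRNA livers and 3 rose and 2 fell in control gRNA livers, among them the chaperonin gene Hspe1 (0.57 ± 0.18 and 0.80 ± 0.18). Trap1, a mitochondrial HSP90, fell in control gRNA livers (-0.66 ± 0.19) and the protease gene Htra2 rose there (0.46 ± 0.14), and neither was called in Pdx1 gRNA livers. These shares stand beside 11.7% and 16.3% of all genes that rose and 10.4% and 15.8% that fell, against 53.1% and 56.2% of the 32 tested stress response genes that rose and 42.1% and 47.4% of the other ATF4 targets.

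**Figure D5:**
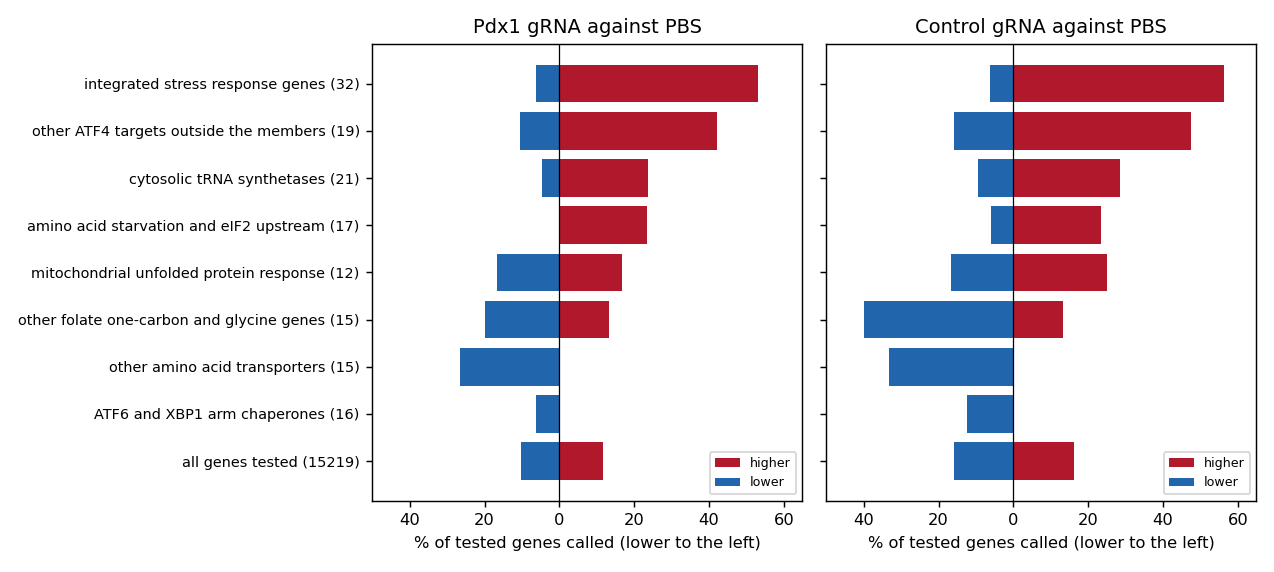
Percent of the tested genes of each list (number in brackets) that were called higher (red, right) or lower (blue, left) in Pdx1 gRNA livers (left panel) and control gRNA livers (right panel) against PBS, with all 15219 tested genes in the bottom row. The integrated stress response genes had 17 and 18 of 32 called higher, and the ATF6 and XBP1 arm chaperones 0 of 16 in both.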

How the data were processed

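Liver RNA of 12 libraries was analysed from the deposited files, 1 per library. Per the file headers these hold fragment counts per gene from featureCounts 1.4.6-p4, run unstranded on read pairs whose ends both mapped, with the GENCODE M13 annotation. The authors applied no normalization to the deposited counts. The submitters' processing notes name Trimmomatic 0.32 and STAR 2.4.1a, besides Subread, R 3.5.1 and DESeq2 1.22.0, with GRCm38 and mm10 as builds. No table of the authors' own tests was used here.

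Symbols were matched by gene identifier for 50376 of 50600 genes. Low genes were removed by filterByExpr (minimum count 10), and TMM gave the scaling factors. The 12 libraries entered a single edgeR 4.0.16 fit in R 4.3.3 (quasi-likelihood, robust, two-sided), with Benjamini-Hochberg adjustment over 15219 genes. CPM were computed on TMM-scaled library sizes, and the SE of a log2 fold change is its size divided by the square root of its F statistic. With 11824767 to 22008046 counts per library, the least abundant members rest on few counts. These are given in the text for Stc2, Slc7a3, Chac1, Asns, Psat1 and Phgdh. Over the PBS group Aldh1l2 had 28 counts, Fgf21 88, Slc7a1 94 and Mthfd2 96. The members, gene lists, tests and alternatives were chosen with earlier results of these data known. Values in every library are given for the 6 called members of largest fold change in each comparison, Atf4, Ddit3 and called members against the main direction. Up to 3 genes of each other list were named by smallest p in control gRNA against PBS. Alternatives were other scaling factors, no filter, DESeq2 1.42.0, limma-voom (limma 3.58.1), fits of 8 libraries, a block for the replicate number, each library left out, and PBS libraries 2 and 3 left out. Methods were tested on simulated data. No library was a copy of another (chi-square divided by degrees of freedom was at least 19.3 in all 66 pairs). The labels do not pair samples.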

Additional observations from a re-analysis of the deposited data

Results flagged for a closer look

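In 10 of 99 groups of 4 libraries, 1 library lay farther from the other 3 than the limit for a sample of that size. Chance gives about 1 in 20 for independent, normally distributed values. The CPM were not on a log scale and the genes share the same libraries, so the count is not a test against that rate. Such groups were not counted over all tested genes. Pdx1 gRNA library 4 was the high one for 5 genes: 50.6 CPM of Psat1 (6.62 to 13.5 CPM in the other 3), 5.43 CPM of Mthfd2 (3.09 to 3.41 CPM), 18.1 CPM of Asns (3.10 to 4.60 CPM), 18.8 CPM of Slc7a5 (5.66 to 7.60 CPM) and 102.6 CPM of Slc1a4 (21.2 to 31.0 CPM). Control gRNA library 1 was high for 3: 7.75 CPM of Phgdh (1.88 to 2.48 CPM in the other 3), 8.46 CPM of Mthfd2 (4.15 to 4.64 CPM) and 19.5 CPM of Asns (3.43 to 5.62 CPM). PBS library 1 was high for Atf3, at 13.4 CPM (2.50 to 2.66 CPM), and PBS library 4 for Vldlr, at 33.4 CPM (1.90 to 7.16 CPM). All 8 of these values in the virus groups belong to genes of serine, one-carbon and amino acid metabolism or to amino acid transporters.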

How the results depend on the processing

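Each member with an unadjusted p under 0.05 kept its direction in every alternative run, and no call changed sign. Without PBS libraries 2 and 3, 9 members rose in Pdx1 gRNA livers against PBS in place of 17, and of the other lists 12 genes rose and 3 fell in place of 21 and 13, while in control gRNA livers 14 of the other lists' genes rose and 7 fell in place of 24 and 21. That setting leaves 2 PBS libraries. Leaving out each library in turn gave 13 to 18 members higher and 2 lower in Pdx1 gRNA livers and 15 to 19 higher and 2 lower in control gRNA livers. For the other lists it gave 16 to 24 higher and 7 to 24 lower in Pdx1 gRNA livers (24 without PBS library 1, 7 without PBS library 3), and 16 to 28 higher and 15 to 34 lower in control gRNA livers (34 without PBS library 1). The median of the members between Pdx1 gRNA and control gRNA livers lay between -0.09 and 0.27, and was 0.27 without control gRNA library 1. With only the 8 libraries compared, 8 genes of the other lists fell in Pdx1 gRNA livers, and Slc7a3 did not pass the filter. DESeq2 called 1 gene of the other lists between the virus groups. With upper-quartile factors the median of all genes in control gRNA livers against PBS moved to 0.10, in place of -0.01. The cause was not tested in any of these cases. With the replicate number as a block, 15 members rose in Pdx1 gRNA livers and 16 in control gRNA livers, 2 fell in each, and 0 were called between the virus groups. The calls lost were Atf4 and Slc7a5 in Pdx1 gRNA livers and Sesn2 and Slc7a5 in control gRNA livers. The share of all genes called was not computed for the block or for single libraries left out. The counts of members in those settings thus have no such share beside them. Same-numbered libraries correlated above 0.1 in 3 of 12 pairs and 2 of 12 libraries correlated best with their own number, so the numbers were not taken as pairing. Depth limits the members with few counts, such as Slc7a3 in PBS livers, with 9 counts.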
